A study of Mus musculus with 2 samples.

Results

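The genes described here encode NF-E2, its relatives and their partners: the CNC activators Nfe2, Nfe2l1 and Nfe2l2, the repressors Bach1 and Bach2, the small MAF proteins Mafk, Mafg and Maff, and Keap1. They were chosen by name and matched by gene identifier. All 9 were found among the 43346 Ensembl gene rows, with 49 of the 103639 annotated transcripts. The cells were MEL, an immortalized mouse erythroleukemia line, and 2 libraries of total RNA came from MEL cells held in 2% dimethyl sulfoxide (DMSO) for 5 days, an agent that drives this line toward hemoglobin synthesis. Biological replicate numbers 1 and 2 are in the labels, yet both libraries point to 1 biosample record, so the spread between them can be technical. The p-values and intervals given below cover counting error only and do not measure that spread. There was 1 condition, untreated cells were not analysed here, and the line is a leukemia model rather than normal erythroblasts.

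CNC proteins and BACH proteins are basic leucine zipper factors that bind DNA in a pair with a small MAF protein. NF-E2, the pair of Nfe2 with a small MAF protein, was found as a factor at the globin gene control region and is needed for platelet formation. NRF2, encoded by Nfe2l2, activates genes of the oxidative stress response when it escapes KEAP1, the adaptor that hands it to a CUL3 ubiquitin ligase. NRF1, encoded by Nfe2l1, is held in the endoplasmic reticulum and drives proteasome genes when the proteasome fails. BACH1 and BACH2 occupy the same kind of sites as repressors, and heme causes BACH1 to leave DNA. Small MAF proteins have no activation domain, so in such a pair the partner carries the activating or repressing part.

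Replicate 1 held 65109488 estimated counts and the deeper replicate 2 held 90856320. Where no read was counted, counting error still leaves room for 3 counts, which is 0.0461 CPM at the first depth and 0.0330 CPM at the second. Levels are given in TPM, a unit of transcript abundance per length, and nuclear protein-coding genes held only 13.2% and 12.7% of the TPM, so TPM are low for all mRNA. All 10 erythroid marker genes reached 1 TPM in both libraries, and their summed level was 1521 TPM in the first library and 3361 TPM in the second. Most of this was the globin gene Hbb-bs, at 1268 and 2941 TPM, and the median erythroid marker stood at 32.1 and 35.2 TPM. Of 10 myeloid markers 1 reached 1 TPM in both, and the 8 B cell markers summed to 0.07 and 0.04 TPM, with Pax5, Ms4a1 and Blk at 0 counts. Of 11 megakaryocyte markers 3 reached 1 TPM in both, summing over the list to 48.9 and 46.4 TPM. Most of that sum was Pf4, at 34.06 and 24.69 TPM, and Itga2b, at 11.06 and 19.08 TPM, while Ppbp was at 0 counts.

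Of the 9 genes, 7 were expressed at 1 TPM or more in both libraries, where 37.3% of all 21474 protein-coding genes reached that level. Maff and Bach2 did not. The order by mean level was Keap1, Nfe2, Nfe2l1, Mafk, Mafg, Bach1, Nfe2l2, Maff and Bach2. Keap1 stood clear of Nfe2, Nfe2l1 of Mafk, Nfe2l2 of Maff and Maff of Bach2 in both libraries. The neighbours Nfe2 and Nfe2l1, Mafk and Mafg, Mafg and Bach1, and Bach1 and Nfe2l2 overlapped, so their order was not larger than the spread between the libraries. Together the 9 genes held 56.0 TPM in replicate 1 and 47.6 TPM in replicate 2.

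**Figure D1:**
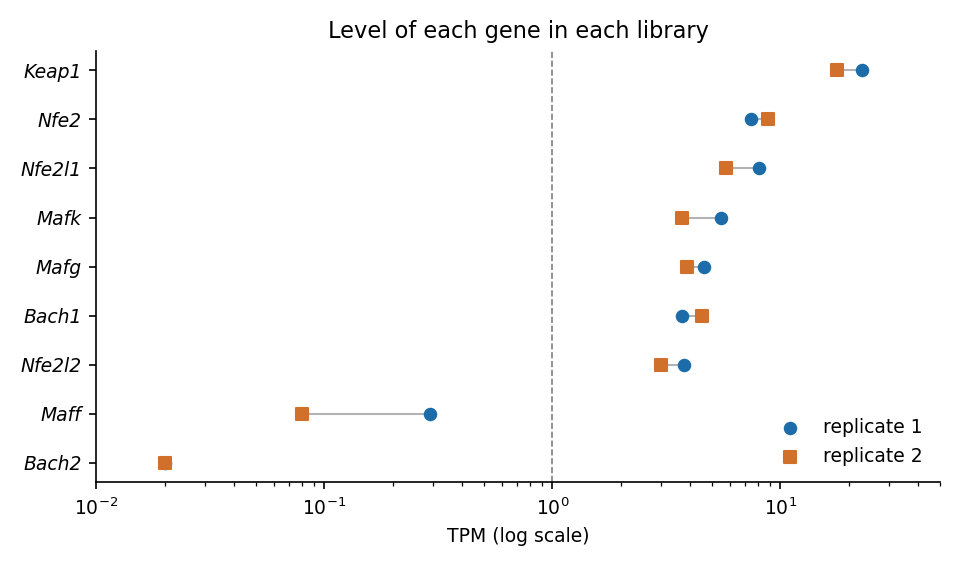
Level of each of the 9 genes in TPM on a log axis (horizontal), with a circle for replicate 1 and a square for replicate 2; grey lines join the libraries and the dashed line marks 1 TPM. Keap1 lies to the right of every other gene, 7 genes lie above 1 TPM, and Maff and Bach2 lie below it, with the Bach2 symbols on top of each other.

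Among the CNC activators, Nfe2, the erythroid and megakaryocytic p45 subunit of NF-E2, was at 7.43 TPM in replicate 1 and 8.83 TPM in replicate 2, or 8.13 ± 0.990 TPM (SD, n = 2). This level was above that of 89.8% of protein-coding genes. Nfe2 (ENSMUSG00000058794.8) lies on the minus strand of chromosome 15, from 103248212 to 103258403 in GRCm38. Nfe2l1 (ENSMUSG00000038615.13; chromosome 11, 96817414 to 96829968, minus strand) was at 8.04 and 5.75 TPM, or 6.90 ± 1.62 TPM, so it exceeded Nfe2 in replicate 1 and fell short of it in replicate 2. Nfe2l2 (ENSMUSG00000015839.6; chromosome 2, 75675513 to 75704641, minus strand) was at 3.77 and 3.01 TPM, or 3.39 ± 0.537 TPM. It was the lowest of the 3 activators in both libraries. The ratio of Nfe2 to Nfe2l2 levels was 1.97 in replicate 1 and 2.93 in replicate 2, and that of Nfe2l1 to Nfe2l2 was 2.13 and 1.91.

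Keap1 (ENSMUSG00000003308.10; chromosome 9, 21229730 to 21239361, minus strand) was the most abundant of the 9 mRNAs, at 22.7 TPM in replicate 1 and 17.8 TPM in replicate 2. Its mean of 20.2 ± 3.48 TPM (SD, n = 2) exceeded that of 96.3% of protein-coding genes. The level of Keap1 mRNA was 6.02 times that of Nfe2l2 in replicate 1 and 5.90 times in replicate 2, a ratio of 5.96 ± 0.0813 that varied little between the libraries. These are ratios of mRNA and give nothing on the amounts of the proteins. An antisense gene, Gm16754, overlaps Keap1 over 3317 nt on the opposite strand and had 828 and 434 counts against 15899 and 21189 for Keap1. Whether counting used the strand is not given in the sources used here, so reads in the shared stretch may belong to either gene.

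Of the repressors, Bach1 was expressed and Bach2 was close to the limit of detection. Bach1 (ENSMUSG00000025612.5; chromosome 16, 87698945 to 87733346, plus strand) was at 3.72 and 4.52 TPM, or 4.12 ± 0.566 TPM (SD, n = 2). Bach2 (ENSMUSG00000040270.12; chromosome 4, 32238804 to 32586108, plus strand), best known from B cells, was listed at 0.02 TPM in both libraries, from 27 and 23 counts. With deposited values rounded to 0.01 TPM, the ratio of Bach1 to Bach2, 186 in replicate 1 and 226 in replicate 2, is uncertain, and with the authors' posterior mean TPM it averaged 56.3. The level of Bach1 was 0.501 times that of Nfe2 in replicate 1 and 0.512 times in replicate 2, although both genes differed between the libraries.

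The small MAF partners were mostly Mafk and Mafg. Mafk (ENSMUSG00000018143.6; chromosome 5, 139791513 to 139802653, plus strand), the p18 subunit of NF-E2, was at 5.47 and 3.70 TPM, or 4.59 ± 1.25 TPM (SD, n = 2). Mafg (ENSMUSG00000051510.9; chromosome 11, 120625117 to 120633600, minus strand) was at 4.61 and 3.89 TPM, or 4.25 ± 0.509 TPM. Mafk was above Mafg in replicate 1 and below it in replicate 2, with ratios of 1.19 and 0.951. Maff (ENSMUSG00000042622.9; chromosome 15, 79346621 to 79359076, plus strand), the stress-inducible member, was at 0.29 and 0.08 TPM. It supplied 2.80% of the small MAF level in replicate 1 and 1.04% in replicate 2. The split between Mafk and Mafg was 52.8% and 44.5% in replicate 1 and 48.2% and 50.7% in replicate 2.

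Summed by role, the activators held 19.2 TPM in replicate 1 and 17.6 TPM in replicate 2, the repressors 3.74 and 4.54 TPM, and the small MAF genes 10.4 and 7.67 TPM. The CNC and BACH genes together were 2.22 times the small MAF genes in replicate 1 and 2.89 times in replicate 2. Nfe2 alone was at 0.717 and 1.15 times the summed small MAF level, below it in one library and above it in the other. Mafg overlaps Sirt7, a gene of the same strand, over 124 nt, and Sirt7 was at 13.8 and 12.1 TPM. Tmem184a overlaps the end of Mafk by 169 nt on the opposite strand, with 55 and 84 counts. Of the remaining annotated genes inside members, Gm24996 within Nfe2l2 and Bach2it1 and Gm24371 within Bach2 had 0 counts in both libraries, and Bach2os had 0 and 1.

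The question of which of these genes differed between the libraries was put to an exact two-sided binomial test on counts scaled by trimmed mean of M values (TMM), with Benjamini-Hochberg adjustment over 15272 genes that had a count of 10 or higher in either library. All 9 genes passed that minimum. What it compares is 2 libraries of the same condition, with counting error as its only error. Over all genes with counts, the chi-square per degree of freedom between the libraries was 258.5, so their differences far exceeded counting error. A gene was called at an adjusted p under 0.05 with a difference of 2-fold or more. Of the 9 genes, 1 was called, Maff, lower in replicate 2. Over all genes 6.50% were called, 2.43% higher and 4.07% lower in replicate 2.

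Maff had 123 counts in replicate 1 and 55 in the more deeply sequenced replicate 2. The scaled count was 3.03-fold higher in replicate 1 (log2 ratio of replicate 2 over replicate 1 of -1.60, 95% interval -2.10 to -1.14; adjusted p = 3.31e-12 by the exact binomial test). Its difference was larger in size than that of 97.3% of tested genes. Bach2, at similarly low counts, had a log2 ratio of -0.67 with an interval from -1.55 to 0.18 and did not pass (adjusted p = 0.163 by the exact binomial test).

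Bach1 had 4486 counts in replicate 1 and 9604 in replicate 2, and Nfe2 had 2611 and 5050. Scaled counts in replicate 2 were 1.57-fold higher for Bach1 (log2 ratio 0.65, interval 0.60 to 0.70; adjusted p = 2.69e-141 by the exact binomial test). They were 1.42-fold higher for Nfe2 (log2 ratio 0.50, interval 0.43 to 0.57; adjusted p = 1.24e-47 by the same exact test). Neither reached 2-fold, though Bach1 would be called at 1.5-fold, where 16.1% of all tested genes are. Both genes were also higher in replicate 2 in TPM. The erythroid markers moved the same way: all 10 were above 0 in log2 ratio, 5 of them were called higher in replicate 2, and their median was 1.17. Slc4a1, the red cell anion exchanger, had the largest ratio among them, at 2.79. The part of this in the Nfe2 and Bach1 values was not tested.

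On the TMM scale the other 5 genes differed by less. Nfe2l1 had 6782 and 7835 counts and a log2 ratio of -0.24 (interval -0.29 to -0.19), and Mafk had 3450 and 3976 counts and a log2 ratio of -0.24 (interval -0.31 to -0.18). Keap1, at the highest counts, had a log2 ratio of -0.035 with an interval of -0.065 to -0.006, and Nfe2l2, with 1972 and 2607 counts, one of -0.05 with an interval of -0.13 to 0.04. For Nfe2l2 the adjusted p was 0.349 by the exact binomial test, and its interval leaves room for a small difference in either direction. Mafg had 4058 and 5980 counts and a log2 ratio of 0.11 (interval 0.05 to 0.17) on the TMM scale, while on the TPM scale its ratio was -0.22. The effective length the authors' table used for Mafg was 3653 nt in replicate 1 and 3839 nt in replicate 2. The TPM scale also moved the median of all tested genes, from -0.004 with TMM to -0.145. Among genes at 1 TPM or more in both libraries the median on the TPM scale was -0.22. The order of the differences depended on this choice. In log2 of TPM plus 0.5 the ratio was -0.51 for Mafk, -0.45 for Nfe2l1, -0.34 for Keap1 and -0.28 for Nfe2l2, larger in size than the 0.25 of Bach1 and the 0.23 of Nfe2.

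Counting only the adjusted p, 7 of the 9 genes were under 0.05, 3 higher in replicate 2 and 4 lower, beside 62.0% of all tested genes. The median log2 ratio of the 9 was -0.05 and that of all tested genes -0.004. At these depths small differences pass the adjusted p for most genes, and the 2-fold limit sets the calls.

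**Figure D2:**
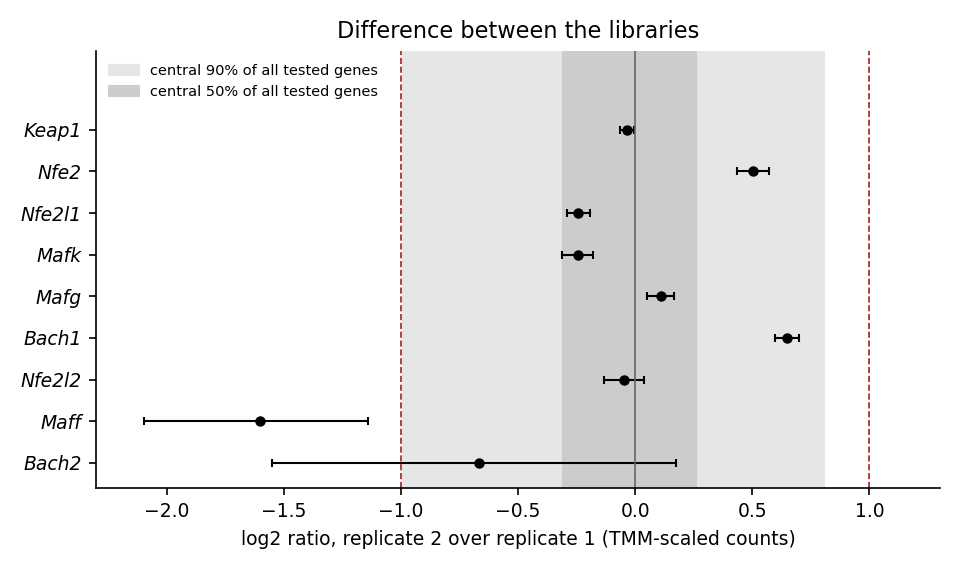
Log2 ratio of replicate 2 over replicate 1 in TMM-scaled counts (horizontal) for each of the 9 genes, with exact 95% intervals as bars; grey bands show the central 50% and 90% of all 15272 tested genes and red dashed lines mark 2-fold. Maff lies outside both bands and past the left dashed line, Nfe2 and Bach1 lie to the right of the inner band, and the Bach2 interval crosses 0.

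Transcript tables showed which annotated forms carried these levels. The same transcript led in both libraries for 7 of the 9 genes, and the exceptions were the low genes Maff and Bach2. With posterior mean TPM it was 8 of 9, the added gene being Bach2. Its shared leader there, Bach2-205, had 0 counts in replicate 1 and 1 in replicate 2, so reads hardly bear on that agreement. Of the 49 transcripts, 36 were annotated as protein-coding, and 9 had 0 counts in both libraries. Transcript shares are estimates from reads that several forms have in common, so they are less certain than the gene totals.

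Nfe2l1 was the gene most divided among starts. Its leading form by TPM, Nfe2l1-212, held 39.6% of the gene's TPM in replicate 1 and 34.4% in replicate 2. It starts at 96824127, inside the gene, and its annotated coding sequence has 453 codons. The full-length form Nfe2l1-201, with 741 codons, starts at 96829968 and held 33.4% and 27.9%. By estimated counts Nfe2l1-201 was the higher of these 2 forms, at 2917 and 2887 against 2590 and 2666 for Nfe2l1-212. Both coding sequences end at the same base, and that of Nfe2l1-212 begins further downstream, at 96821271 instead of 96827707, so it lacks the start of the long coding sequence. Transcripts were then summed in groups, in which each start lies within 500 nt of the next. Those at the first start together held 41.5% and 40.5%, and those 5416 nt downstream 40.6% and 34.9%. Each group includes a form not annotated as coding. In the first this was Nfe2l1-207, with 8.05% and 11.75%, and in the other Nfe2l1-208, with 1.03% and 0.45%. A further group 2013 nt downstream, led by Nfe2l1-203 with the same 741 codons as Nfe2l1-201, held 15.4% and 22.2%. Together Nfe2l1-201 and Nfe2l1-203 held more of the TPM than the shorter Nfe2l1-212 in both libraries. The share of the inner start and that of the first start were close in replicate 1 and differed by more in replicate 2.

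The stretches before those starts are shown because they set the main long and short forms apart. They are 250 bases upstream of each start, 5′ to 3′ on the minus strand, from RefSeq on GRCm38.p6, where both starts coincide with a RefSeq start. Capitals mark ATTGG, the reverse complement of CCAAT, the letters known as the core of sites for the factor NF-Y.
Nfe2l1-201, chr11:96829969-96830218: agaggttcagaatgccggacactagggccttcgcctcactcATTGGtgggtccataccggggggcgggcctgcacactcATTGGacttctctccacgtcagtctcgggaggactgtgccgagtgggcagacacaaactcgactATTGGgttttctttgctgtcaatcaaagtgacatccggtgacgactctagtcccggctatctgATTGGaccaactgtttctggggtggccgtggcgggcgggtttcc
Nfe2l1-212, chr11:96824128-96824377: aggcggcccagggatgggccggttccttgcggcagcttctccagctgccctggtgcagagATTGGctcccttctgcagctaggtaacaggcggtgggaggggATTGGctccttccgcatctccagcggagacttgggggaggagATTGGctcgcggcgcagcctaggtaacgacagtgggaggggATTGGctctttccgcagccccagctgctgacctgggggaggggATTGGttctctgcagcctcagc
The stretch before Nfe2l1-201 holds 4 such matches and that before Nfe2l1-212 holds 5. Counting CCAAT on both strands in the 250 upstream bases, 0.840% of all 32851 RefSeq promoters have 4 or more and 0.213% have 5 or more. Another RefSeq start of Nfe2l1, at 96829502 in the first group of starts, has 0 matches in its upstream bases. A match is a description of the letters and not of a bound site. These letters were looked for after the sequences had been seen.

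For Nfe2, transcript Nfe2-201 with 373 codons led, with 61.6% of the TPM in replicate 1 and 58.7% in replicate 2. It starts at 103255439. A set of 5 transcripts starting between 103251687 and 103251465, closer to the coding sequence, held 32.3% and 36.3% together. Of these 5, Nfe2-205 has a longer coding sequence of 396 codons, and the others share their first coding base, 103251042, with Nfe2-201. The farthest upstream start, at 103258403, had 2.17 counts in replicate 1 and 0 in replicate 2. All 10 Nfe2 transcripts are annotated as protein-coding.

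Keap1 was divided among 4 coding transcripts of 624 codons that share the coding sequence, led by Keap1-205 with 46.9% and 46.6% and Keap1-201 with 33.1% and 37.6%. The Keap1 coding transcripts held 97.2% and 98.5% of the gene's TPM. Nfe2l2-201, with 597 codons, held 84.9% and 85.4%, and the rest was the noncoding transcript Nfe2l2-202.

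Bach1 had a single coding transcript, Bach1-201 with 739 codons, at 81.5% of the gene's TPM in replicate 1 and 89.8% in replicate 2. The difference lay mostly in Bach1-203, a form not annotated as coding, which held 16.7% and 8.56%. In counts Bach1-203 was nearly level at 308.75 and 317.51, while Bach1-201 went from 4170 to 9275. The few Bach2 counts fell on different transcripts in each library, 26 on Bach2-202 in replicate 1 and 22 on Bach2-207 in replicate 2. The latter starts 178631 nt downstream of the first Bach2 start and has the same 839 codons. Assignments from so few counts do not establish which start was used.

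The small MAF genes each had nearly all of their level on transcripts of a single coding sequence. Mafk-201, with 156 codons, held 91.0% and 95.2% of the Mafk TPM. Mafg-201, with 162 codons, held 72.4% and 77.1%, and Mafg-204, which starts in a group 2803 nt downstream and has the same codons, held 17.3% and 15.2%. Maff was split between Maff-202, with 63.7% in replicate 1 and 44.1% in replicate 2, and Maff-201, with 36.3% and 55.9%. These came from 77.85 and 24.06 counts on Maff-202 and 45.15 and 30.94 on Maff-201, and both encode 156 codons.

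**Figure D3:**
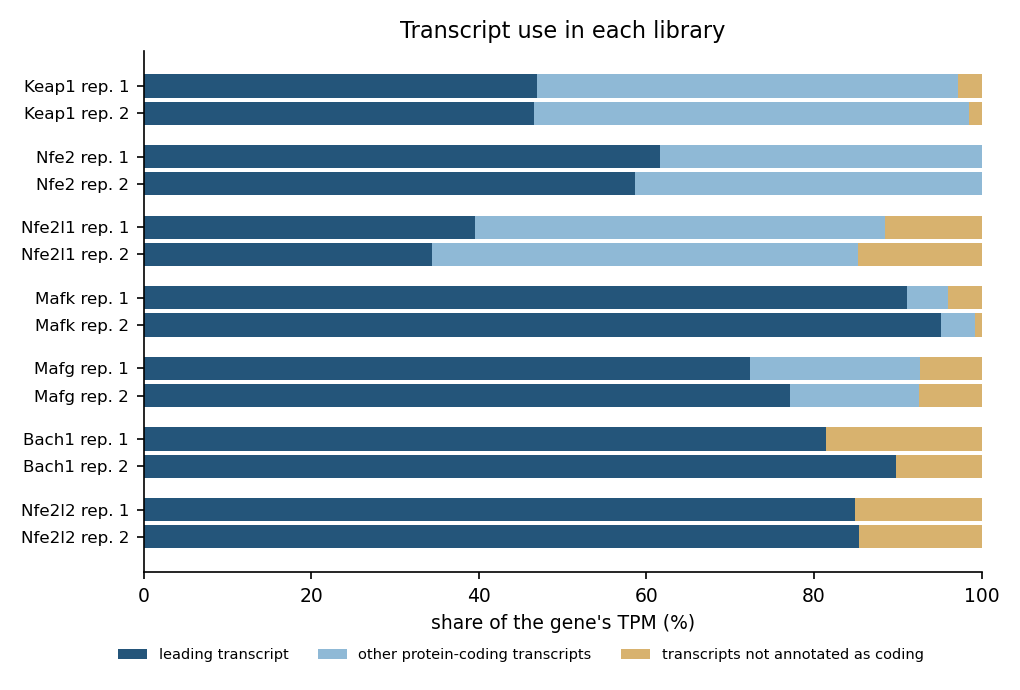
Share of each gene's TPM in each library (horizontal, %), summed from the transcript tables, for the 7 genes with the same leading transcript in both libraries; dark bars are the leading transcript, light bars other coding transcripts and tan bars transcripts not annotated as coding. Nfe2l1 and Keap1 have leading shares below 50%, and the tan part of Bach1 is smaller in replicate 2.

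Promoters were read for letters that the CNC, BACH and small MAF factors are known to bind and, apart from those, for a GATA site. RefSeq windows from 250 bases before to 50 after a start were available for 8 of the 9 genes, in 14 windows. The gene without a window was Nfe2, so its promoter was not searched. The core of the antioxidant response element, bound by NRF2 or BACH1 with a small MAF protein, was searched on both strands as TGACNNNGC. It was found for 4 of the 8 genes, Nfe2l2, Mafk, Mafg and Maff, beside 14.0% of 27025 genes with a window. A match in any window of a gene counted. By window the core was in 4 of the 14, beside 12.4% of all windows. TGAGTCA, the core that NF-E2 sites share with AP-1 sites, was found for 0 of the 8 and for 5.95% of all genes. The 2 searches can overlap, as in TGACTCAGC. AGATAA, the letters of a GATA site, were found for Keap1 and Maff and for 12.7% of all genes. The stretches around the TGACNNNGC matches follow, 5′ to 3′ on the gene's strand, with the match in capitals on whichever strand it was found.
Nfe2l2, chr2:75704865-75704913: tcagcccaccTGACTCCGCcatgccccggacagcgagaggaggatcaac
Mafk, chr5:139791493-139791535: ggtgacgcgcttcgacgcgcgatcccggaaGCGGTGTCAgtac
Mafg, chr11:120633731-120633797: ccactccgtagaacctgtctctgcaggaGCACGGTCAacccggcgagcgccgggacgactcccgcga
Maff, chr15:79346479-79346547: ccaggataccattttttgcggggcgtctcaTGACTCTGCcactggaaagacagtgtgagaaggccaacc
Counted from the RefSeq start to the first base of the match, they lie 240 bases upstream for Nfe2l2, 13 for Mafk, 222 for Mafg and 112 for Maff. The Mafk and Mafg matches are on the strand opposite to the gene. The leading transcript Mafk-201 begins further upstream than the RefSeq start, at 139791513, so the Mafk match lies inside that transcript. The Maff window belongs to a start 899 nt from that of Maff-201, and neither Maff transcript in the tables begins there. The 4 genes with the letters ranged from 0.185 TPM for Maff to 4.59 TPM for Mafk in mean level, and 1 of them, Maff, was called between the libraries.

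The wider pathway was described with 9 lists that hold 106 different genes. All 106 were in the tables and 100 were tested, of which 11 were called higher and 1 lower in replicate 2, beside 2.43% higher and 4.07% lower over all tested genes. The NF-E2 target list holds 9 of the 11. Near relatives outside the 9 genes were scarce. None of the 5 large MAF and NRF3 genes reached 1 TPM. Mafa, a large MAF protein of pancreatic beta cells, was the highest at 0.07 and 0.09 TPM, Nfe2l3, encoding NRF3, followed at 0.07 and 0.05 TPM, and Maf had 0 counts in both libraries.

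Among 14 genes of AP-1 and other bZIP factors, which bind related letters, 5 reached 1 TPM in both libraries. Atf4, the main factor of the integrated stress response, led with 45.5 and 43.9 TPM, and Junb had 10.5 and 13.2 TPM. Jund followed with 3.43 and 3.70 TPM and Atf2 with 2.68 and 2.23 TPM. Jun itself had 3 counts in replicate 1 and 0 in replicate 2. Atf3, another stress-induced factor, was called higher in replicate 2 with 168 and 760 counts (log2 ratio 1.73). Fosl1 was called lower with 30 and 15 counts (log2 ratio -1.42). The list's median log2 ratio was 0.23.

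Transcripts for the machinery that controls these proteins were present. All 10 genes of KEAP1 and NRF2 turnover reached 1 TPM in both libraries, with none called and a median log2 ratio of 0.27. The ligase adaptor gene Skp1a was at 44.1 and 36.6 TPM, and Sqstm1, encoding the p62 receptor that binds KEAP1, at 40.7 and 30.7 TPM. Rbx1, the RING subunit of cullin ligases, was at 14.6 and 14.9 TPM, and Cul3 itself at 8.23 and 9.04 TPM. Btrc, the lowest, was at 1.27 and 1.37 TPM. Keap1 was thus above Cul3 and below Sqstm1 in both libraries.

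All 6 genes of NRF1 processing reached 1 TPM, with none called and a median of 0.03. They ran from Vcp, the ATPase that draws NRF1 from the membrane, at 42.5 and 35.6 TPM, to Ngly1, its deglycosylase, at 1.75 and 2.21 TPM. Ddi2, the protease that cleaves NRF1, was at 4.55 and 2.79 TPM. The 4 genes of BACH turnover and export were also all expressed, with none called and a median of -0.03. Rbck1, also known as HOIL-1, was at 16.2 and 11.2 TPM, the export receptor Xpo1 at 12.3 and 9.05 TPM, and Fbxl17, a ligase adaptor for BACH1, was the lowest at 1.27 and 1.12 TPM.

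Of 23 genes known as NRF2 targets, 17 reached 1 TPM in both libraries, 22 were tested and 1 was called, with a median log2 ratio of 0.06. The ferritin light chain gene Ftl1 stood at 254 and 342 TPM and the heavy chain gene Fth1 at 189 and 180 TPM. Blvrb, a biliverdin reductase abundant in red cells, was at 79.0 and 90.2 TPM and the thioredoxin gene Txn1 at 56.6 and 55.7 TPM. Osgin1 was the lowest, with 3 and 2 counts. Slc7a11, the cystine transporter, was called higher in replicate 2, with 634 and 2710 counts (log2 ratio 1.65). In 19 of these genes with a promoter window, 9 held TGACNNNGC, beside 14.0% of all genes, and 4 held TGAGTCA, beside 5.95% of all genes. Those with both were Srxn1, Prdx1 and Me1. Counted by window, 0.947% of all windows hold both, and the share by gene was not computed. Prdx1 and Me1 are shown because the letters overlap there, so that 1 stretch carries both cores.
Prdx1, chr4:116685349-116685506: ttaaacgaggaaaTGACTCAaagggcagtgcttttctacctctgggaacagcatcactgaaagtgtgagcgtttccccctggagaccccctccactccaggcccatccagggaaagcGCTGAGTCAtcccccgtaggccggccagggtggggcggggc
Me1, chr9:86695912-86695950: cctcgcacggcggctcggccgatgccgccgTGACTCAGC
Prdx1, a peroxiredoxin, was at 27.7 and 22.7 TPM, and Me1, the cytosolic malic enzyme, at 0.62 and 0.34 TPM. Genes with the overlapping cores thus stood at different levels.

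The 8 BACH1 targets share 6 genes with the NRF2 list, which is 6 of 8 and 6 of 23. Of the 8, 6 reached 1 TPM and 1 was called, again Slc7a11, with a list median of 0.10. The members not in the NRF2 list were Slc48a1, a heme transporter, at 17.04 and 11.59 TPM, and Slc40a1, the iron exporter ferroportin, at 10.04 and 5.62 TPM. Hmox1, heme oxygenase 1 and the best known BACH1 target, was at 1.92 and 1.31 TPM, and Nqo1, a quinone reductase, at 0.84 and 0.74 TPM.

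The 10 genes known as NF-E2 targets had the highest median ratio of the 9 lists. Of the 10, 9 were called higher in replicate 2 and none lower, beside 2.43% higher over all tested genes, and the median log2 ratio was 1.37. The adult globin genes led in level. Hba-a2 was at 2828 TPM in replicate 1 and 5997 TPM in replicate 2, and Hba-a1 at 2038 and 3934 TPM. Hbb-bs was at 1268 and 2941 TPM and Hbb-bt at 225 and 493 TPM. The alpha globin genes are near copies of each other, as are the beta globin genes, so the division within each pair is uncertain. Alas2, which encodes the first enzyme of heme synthesis in red cells, had a log2 ratio of 1.78. Tbxas1, thromboxane synthase, had 147 and 578 counts (log2 ratio 1.52). The member not called was Tubb1, the platelet beta tubulin, with 58 and 81 counts (log2 ratio 0.03). Nfe2 itself had a log2 ratio of 0.50, and 2 of these genes, Hbb-bs and Alas2, are also on the erythroid marker list, which moved the same way as given above. The libraries also differed in the share of counts on rRNA, 7.80% in replicate 1 and 2.92% in replicate 2, and in depth. The part of the erythroid markers, the rRNA share and depth in this list's values was not tested.

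The 32 proteasome genes known as NRF1 targets were all above 1 TPM and none was called, with 12 ratios above 0, 20 below 0 and a median of -0.07. Psmb4 led with 138 and 108 TPM, followed by Psmb3 with 117 and 81.7 TPM, Psmb6 with 86.2 and 67.9 TPM and Psmd4 with 94.3 and 53.4 TPM. Psmd12 was the lowest with 12.8 and 10.1 TPM. The median proteasome gene stood at 29.1 TPM in replicate 1 and 23.7 TPM in replicate 2, above Nfe2l1 in both libraries. TGACNNNGC was found for 5 of the 26 proteasome genes with a promoter window, beside 14.0% of all genes.

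**Figure D4:**
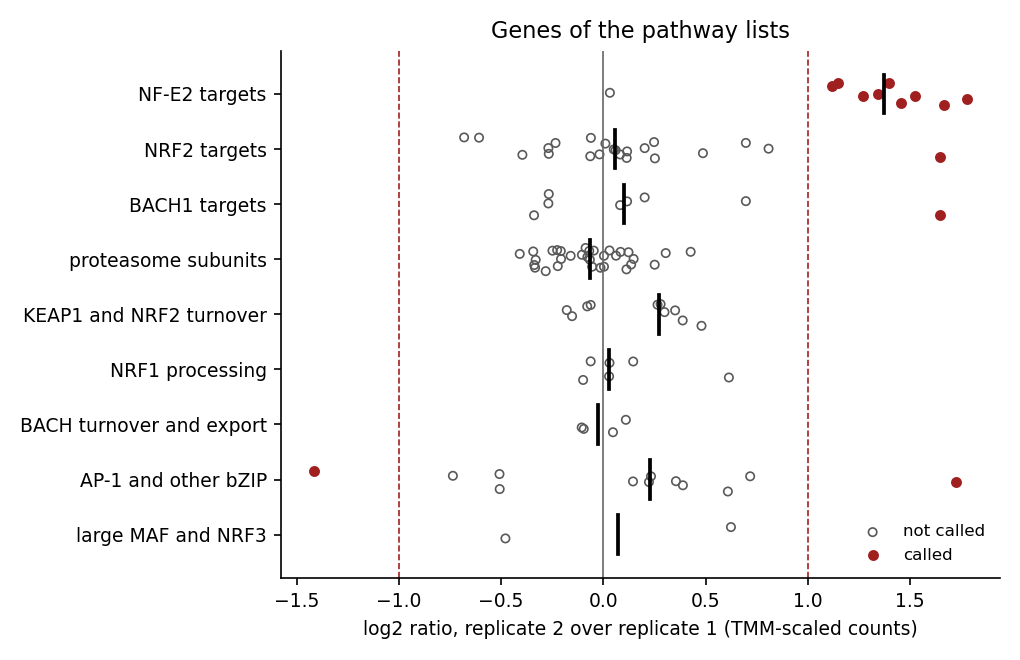
Log2 ratio of replicate 2 over replicate 1 in TMM-scaled counts (horizontal) for the tested genes of the 9 pathway lists (rows, with points spread vertically for visibility); filled red points were called, open points were not, black bars are list medians and red dashed lines mark 2-fold. The NF-E2 targets lie past the right dashed line except for 1 gene, and the proteasome genes lie between the dashed lines.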

How the data were processed

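Each library came with a gene table and a transcript table. The authors gave, per the file headers, estimated counts, TPM, FPKM, posterior means and, for transcripts, the percent of the gene's TPM. Per the deposited readme the genome was mm10 with GENCODE M4, with the aligner, the quantification program and the strand setting not given in the sources used here. FPKM as deposited served as an alternative to TPM.

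Names and coordinates (1-based) came from GENCODE M21 on GRCm38, a later release; 42462 of 43346 gene rows and all 49 transcripts of the 9 genes matched, 47 of them at the same length. Estimated counts were rounded to whole numbers and scaled with TMM (edgeR 4.0.16, R 4.3.3). Log2 ratios used scaled counts plus 0.5, with exact (Clopper-Pearson) 95% intervals from scipy 1.17.1. The binomial test was tested on simulated data that held counting error only, which is the test's own assumption. That simulation gives nothing on how the test behaves under the larger spread between these libraries. Shares of groups of transcripts, and of leading transcripts where the same one led in both libraries, were computed from TPM, and other single shares are the deposited percent.

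Promoter sequences and starts are from RefSeq (GRCm38.p6). The 9 genes and all lists were chosen with earlier results of these data known. In each list up to 4 genes with the highest mean TPM, the lowest and those called could be named. Slc40a1, Hmox1, Nqo1, Prdx1, Me1, Srxn1 and Tubb1 were chosen after their values were seen, and not every gene that the rule allows is named. Alternatives were other TPM minimums, FPKM, posterior means, TPM rescaled to nuclear protein-coding genes, scaling by total counts or by DESeq2 1.42.0, other count filters and pseudocounts, a 1.5-fold limit, and each library left out. Values of some list genes are not reported here singly.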

Additional observations from a re-analysis of the deposited data

How the results depend on the processing

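With a minimum of 5 TPM, 3 of the 9 genes counted as expressed. With TPM rescaled to nuclear protein-coding genes, the 9 genes summed to 399.5. At 1.5-fold, 2 of the 9 genes (Maff lower, Bach1 higher) and 20 of the pathway genes of 100 tested were called, beside 16.1% of all tested genes, against 12 pathway genes at 2-fold, beside 6.50%. By TPM the median log2 ratio of the 9 genes was -0.28. That of all tested genes was -0.145, and that of genes at 1 TPM or more in both libraries was -0.22. Mafg turned from 0.11 to -0.22. On TPM rescaled to nuclear protein-coding genes, an alternative chosen after seeing the data, Mafg was at -0.18 and Bach2 at 0.01. Over protein-coding transcripts alone, the ratio of Keap1 to Nfe2l2 was 6.84, of Bach1 to Bach2 354.5 and of Bach1 to Nfe2 0.434, and with posterior mean TPM that of Bach1 to Bach2 was 56.3. For these the cause was not tested. With posterior mean TPM, 8 genes instead of 7 had the same leading transcript in both libraries, the added one being Bach2 on a transcript with 0 and 1 counts. Of the recomputed summary values, 54 kept within the spread, within 1.5 times for counts or close to the main median log2 ratio, and the 9 others are given above. With only 2 libraries, the value of either one always lies within the SD around their mean. Levels and ratios with a library left out are therefore among the 54 by construction and are no check on them. No paired analysis was possible because the labels give 1 group, so no groups share replicate numbers. With either library left out, the level is that of the other library and no test between libraries can be made. Depth limits Maff and Bach2, which rest on 123 and 55 and on 27 and 23 counts.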
